A study of Mus musculus with 6 samples.

Results

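T cells that meet an antigen-presenting cell receive further signals through surface proteins that either help or restrain them. In liver endothelial cells (ECs) of young and aged mice, 10 genes for such proteins were followed, chosen by name out of the 24421 genes in the deposited count table. Of these, 6 belong to the B7 family, whose members are ligands for the CD28 family of T cell receptors or related proteins: Cd80 and Cd86 (ligands of CD28 and CTLA-4), Icosl (ligand of ICOS), Cd274 (PD-L1) and Pdcd1lg2 (PD-L2, both ligands of PD-1) and Cd276 (B7-H3). The others are Tnfsf4 (OX40 ligand) and Tnfsf10 (TRAIL) of the TNF superfamily, the TNF receptor Cd40, and the galectin Lgals9, which can bind TIM-3.

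CD80, CD86, ICOSL and OX40L are known to promote T cell activation, PD-L1 and PD-L2 to dampen it, and CD40 to receive help from T cells that carry CD40 ligand. TRAIL can induce apoptosis through death receptors. Liver sinusoidal ECs line blood channels in which lymphocytes pass slowly, take up and present antigen, and are known for favouring tolerance, in part through PD-L1.

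The samples were CD31+CD45- cells sorted by FACS from livers of wild-type C57BL/6J female mice with no treatment named in the labels, 50000 cells per sample, with RNA read in single-end 75-base mode. There were 3 young samples, aged 10 weeks, and 3 aged samples, aged 127, 131 and 136 weeks, by which the aged samples are named here. The study's methods call the 3 samples of each group independent and exclude mice with visible tumours, hepatomegaly or splenomegaly. In such bulk RNA, fewer cells of a type and less RNA per cell cannot be told apart. Each sample held between 23001556 and 31651817 counts, so that 3 counts, taken here as the detection floor, stood at 0.0948 to 0.130 CPM (counts scaled to library size). The floor covers counting error only.

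Of 9 pan-endothelial markers, all were detected, and their summed level was 14899 to 16164 CPM in the young and 10618 to 13626 CPM in the aged samples, without overlap. In aged ECs, 2 of the 9 had higher and 7 lower means. Of the 9, 4 (Kdr, Tek, Eng and Robo4) were lower without overlap, beside 8.33% of all genes tested. Pecam1, which encodes the sorted CD31, had 1366 to 1635 CPM in all 6 samples. The summed level of 8 sinusoidal markers was 15496 to 17127 CPM in the young and 6026 to 10809 CPM in the aged samples, so the ages did not overlap on it. Ptprc, which encodes the CD45 that the sort is meant to remove, had 1.56, 1.17 and 1.70 CPM in young samples 1, 2 and 3. In the 127-, 131- and 136-week samples it had 7.57, 1.28 and 25.6 CPM. Summed over 8 pan-leukocyte markers, the level was 30.6 to 36.7 CPM in the young samples and 70.7, 28.5 and 224.0 CPM in the aged samples. The libraries also differed in the part of their counts that fell on Lars2 and Rn45s, symbols to which ribosomal RNA reads map. This part was 1.29% in young sample 3 and 0.960% in the 127-week sample, and 4.68% to 5.53% in the other 4, so each kind of library held both ages.

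The 10 genes covered a wide range of levels, compared here as deposited FPKM, which is scaled for transcript length. Lgals9 stood far above the others, with a mean of 359.6 FPKM over the 6 samples (range 262.8 to 496.5), above 99.1% of the genes in the table. Tnfsf10 followed with 35.5 FPKM (range 30.9 to 38.6) and Cd274 with 12.1 FPKM (range 6.65 to 23.2). Neither range overlapped that of the gene above it. Cd40 (mean 6.40 FPKM, range 4.75 to 11.3) and Icosl (mean 6.13 FPKM, range 4.49 to 8.31) overlapped each other, and Cd40 overlapped Cd274, although it was below Cd274 in each of the 6 samples. Cd86 came next at 0.615 FPKM (range 0.138 to 1.84), with no overlap with Icosl. The means of Cd276, Cd80, Pdcd1lg2 and Tnfsf4 were 0.271, 0.152, 0.0858 and 0.0139 FPKM, and the range of each overlapped that of the gene above it. The RNAs for galectin-9, TRAIL and PD-L1 had the highest means of the 10 at both ages, and those for CD86, B7-H3, CD80, PD-L2 and OX40L were below 1 FPKM in the mean over all 6 samples.

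**Figure D1:**
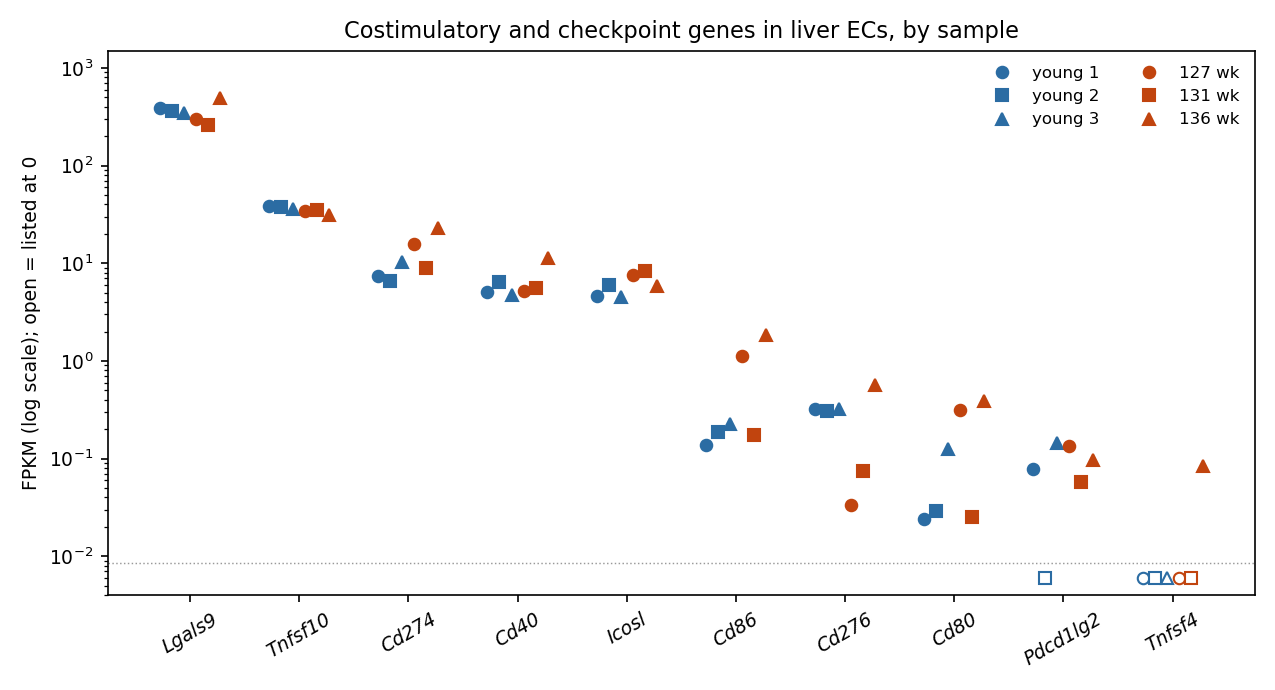
Level of each of the 10 genes in each sample, as FPKM on a log axis, ordered by the mean over the 6 samples. Blue points are young and orange points aged samples, and open points under the dotted line are samples in which the gene is listed at 0. Lgals9 lies between 262.8 and 496.5 FPKM, Tnfsf10 between 30.9 and 38.6, and Cd86 spreads from 0.138 to 1.84.

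Between the ages, 8 of the 10 genes could be tested, those with at least 0.5 CPM in at least 1 sample. Pdcd1lg2 and Tnfsf4 were below this level in every sample. Cd274, Cd40, Icosl, Tnfsf10 and Lgals9 had at least 0.5 CPM in all 6 samples, whereas Cd80 passed only through the 127- and 136-week samples and so had to be higher there. With edgeR's quasi-likelihood test, 0 of the 8 passed a Benjamini-Hochberg adjusted p of 0.05 with a log2 fold change beyond 1, as did 0 (0%) of the 14612 genes tested, among which the smallest adjusted p was 0.0735. At an unadjusted p below 0.05, 3 of the 8 (Cd274, Cd86 and Icosl) were higher and 0 lower, against 8.32% of all genes higher and 4.32% lower. In 0 of the 8 were the aged and young samples fully apart in CPM, while 9.62% of all genes lay higher and 8.33% lower without overlap. DESeq2 gave an adjusted p for 7 of the 8, all but Cd80, and called 0 of them, where 3.39% of the 13979 genes with such a p were called in either direction. The log2 fold change was positive for 5 of the 8 and negative for 3, with a median of 0.50, while over all genes tested 7462 were positive and 7150 negative, with a median of 0.0098. Of the 7 genes other than Cd80, whose direction the filter fixed, 4 were positive and 3 negative. Leaving out all genes that reached 0.5 CPM in samples of 1 age only, 6656 of 13458 were positive and 6802 negative. Taken 1 gene at a time, a two-sided exact permutation test of the CPM means gave p = 0.2 for Cd274, Icosl and Tnfsf10 and p = 0.3 for Cd86 and Cd40, where 0.1 is the smallest that 3 samples against 3 allow. The 3 genes depended on the samples used: without the 136-week sample only Icosl remained at an unadjusted p below 0.05 on the higher side. Cd276 was on the lower side there, for which no share of all genes was counted. Without young sample 1 there were 0, although the log2 fold changes of Cd274, Cd86 and Icosl were still 0.93, 2.35 and 0.45.

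**Figure D2:**
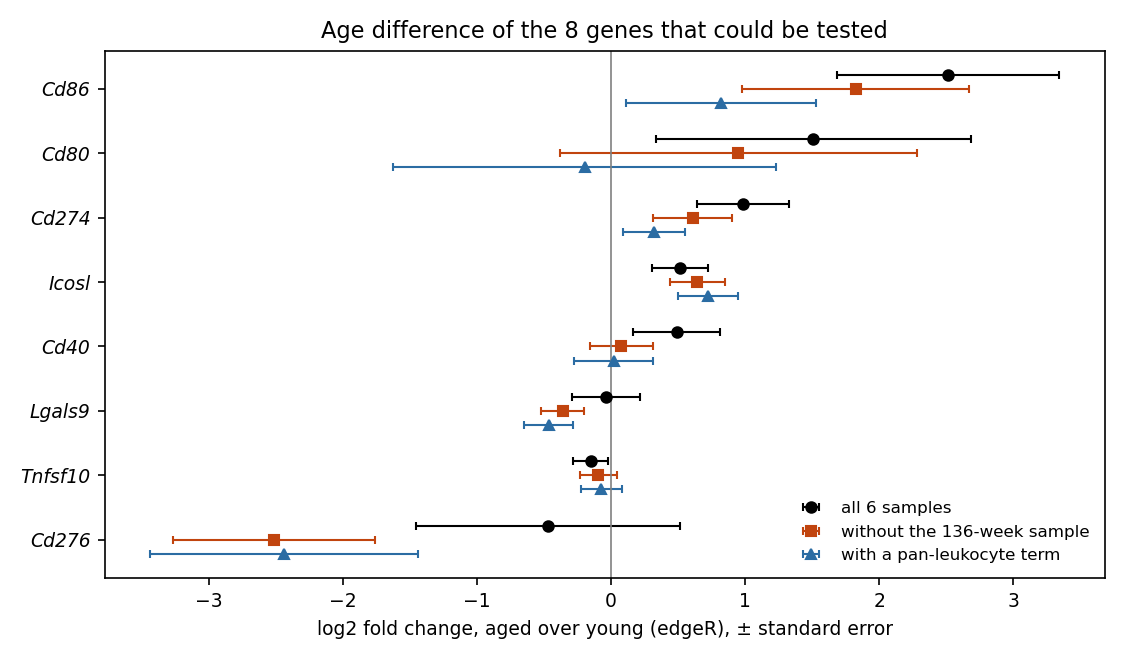
Log2 fold change of aged over young ECs for the 8 genes tested, from edgeR, with bars of 1 standard error. Black circles use all 6 samples, orange squares leave out the 136-week sample and blue triangles add a term for the level of pan-leukocyte markers. Cd86 goes from 2.52 to 1.83 and 0.82, Cd274 from 0.98 to 0.61 and 0.32, and Icosl from 0.52 to 0.64 and 0.72.

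Cd274 encodes PD-L1, the ligand through which many cells restrain PD-1-bearing T cells, and lies on chromosome 19 (29441945 to 29462585 of mm9, plus strand). It had 26.7, 23.8 and 36.3 CPM in young samples 1, 2 and 3, and 56.0, 32.2 and 83.7 CPM in the 127-, 131- and 136-week samples. The 127- and 136-week samples were above every young sample, but the 131-week sample fell below young sample 3. The mean was 28.9 ± 6.52 CPM in young and 57.3 ± 25.8 CPM in aged ECs (SD, n = 3 each), a ratio of 1.98, and 1.52 without the 136-week sample. The log2 fold change was 0.98 (standard error 0.34), with an adjusted p of 0.332 in edgeR and 0.113 in DESeq2. Within the pair of libraries with few Lars2 and Rn45s counts, the aged sample exceeded the young one by 0.61 on the log2(CPM + 1) scale, and within the other 4 libraries the difference of means was 1.01.

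The order of the 3 aged samples in Cd274 was also that of Ptprc and of the summed pan-leukocyte markers. Set against Ptprc within a sample, a ratio computed after the values were seen, Cd274 had 17.1 to 21.3 counts per Ptprc count in young samples and 7.40, 25.1 and 3.27 in the 127-, 131- and 136-week samples. When edgeR was given a further term, the average log2(CPM + 1) of the pan-leukocyte markers, the log2 fold change of Cd274 was 0.32 (standard error 0.23). The part of leukocyte RNA in the Cd274 difference was not tested beyond these values.

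Pdcd1lg2, for the other PD-1 ligand, starts 22824 bases downstream of the end of Cd274, on the same strand (chromosome 19, 29485409 to 29545647). The neighbours differed in level by a wide margin. Pdcd1lg2 had 7, 0 and 15 counts in the young samples and 13, 6 and 8 in the aged samples, which is at most 0.473 CPM. The ages overlapped, and a difference was not detectable at this depth.

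The 250 bases upstream of the annotated starts were read for the members in the RefSeq promoter table of mouse build GRCm38.p6, which held 7 of the 10. They were searched on both strands for letters of a STAT site (TTCNNNGAA), letters of an interferon response element (GAAANNGAA) and the NF-kB motif. Of 32851 such windows, 7.02% held the first, 7.13% the second and 3.90% the third. Among the 7, the first was found in 0, the second in Cd274 and Lgals9, and the third in Pdcd1lg2. The 3 windows shown are those that held a match. PD-L1, PD-L2 and galectin-9 are known to respond to interferon or to inflammatory signals, and the pair of PD-1 ligands is adjacent but unequal in level. Each run is 5′ to 3′ on the gene's strand and ends at the base before the start, with the matched letters in capitals. Counting backwards from the start, the Cd274 match lies at -76 to -68 and the Lgals9 match at -54 to -46, both on the reverse strand, and the Pdcd1lg2 match at -244 to -235. These are matches of letters only, and Cd80, Icosl, Tnfsf10 and Cd276 held none of the 3 in this window.
Cd274 (chr19:29367188-29367437, plus strand): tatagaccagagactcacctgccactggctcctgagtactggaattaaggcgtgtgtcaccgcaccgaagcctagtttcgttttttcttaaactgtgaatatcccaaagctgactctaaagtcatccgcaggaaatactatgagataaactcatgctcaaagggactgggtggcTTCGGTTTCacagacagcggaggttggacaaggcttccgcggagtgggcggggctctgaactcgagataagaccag
Pdcd1lg2 (chr19:29410669-29410918, plus strand): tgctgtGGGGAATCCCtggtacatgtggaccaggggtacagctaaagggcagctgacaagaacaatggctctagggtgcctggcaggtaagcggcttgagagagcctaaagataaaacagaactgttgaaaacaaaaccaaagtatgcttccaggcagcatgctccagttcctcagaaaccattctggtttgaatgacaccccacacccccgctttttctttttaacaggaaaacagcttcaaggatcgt
Lgals9 (chr11:78984925-78985174, minus strand): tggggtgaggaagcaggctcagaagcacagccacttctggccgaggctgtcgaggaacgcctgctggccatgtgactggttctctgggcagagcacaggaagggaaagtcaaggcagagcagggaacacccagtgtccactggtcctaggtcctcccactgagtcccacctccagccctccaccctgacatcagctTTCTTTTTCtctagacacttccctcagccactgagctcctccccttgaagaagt

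Of 10 genes listed for the control of PD-L1 (interferon-gamma receptors, JAK and STAT proteins, Irf1, Socs1 and the CMTM proteins that stabilise PD-L1), all 10 were tested. Of their log2 fold changes, 5 were above and 5 below 0, with a median of 0.013, and 0 genes passed the adjusted threshold. Irf1, a transcription factor induced by interferon that is known to act on the Cd274 promoter, had 599.1, 629.5 and 1007 CPM in young and 1882, 1447 and 2935 CPM in aged samples. Every aged sample lay above every young sample, with a log2 fold change of 1.49 (standard error 0.33) and an adjusted p of 0.232 in edgeR and 8.79e-04 in DESeq2. It was 1.16 without the 136-week sample and 1.01 with the pan-leukocyte term. Jak1, a kinase of interferon receptors, differed by -0.61 on the log2 scale (standard error 0.23) with an adjusted p of 0.350 in edgeR and no overlap between the ages. Stat3 had a log2 fold change of 0.37, with an adjusted p of 0.524 in edgeR.

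Cd86 encodes a ligand that antigen-presenting cells use to drive CD28, and lies on chromosome 16 (36603955 to 36666167, minus strand). It had 9, 10 and 17 counts in the young samples and 79, 11 and 111 counts in the 127-, 131- and 136-week samples. In CPM this was 0.335, 0.451 and 0.536 against 2.72, 0.428 and 4.51. The 131-week sample lay within the young range, and the other aged samples well above it. Mean Cd86 was 0.441 ± 0.101 CPM in young and 2.55 ± 2.05 CPM in aged ECs (SD, n = 3 each), a ratio of 5.79, and 3.57 without the 136-week sample. This gave a log2 fold change of 2.52 (standard error 0.83), with an adjusted p of 0.317 in edgeR and 0.0585 in DESeq2.

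Among the aged samples Cd86 followed the order of Ptprc, and among the young samples it did not. It had 0.214 to 0.385 counts per Ptprc count in the young samples and 0.176 to 0.359 in the aged samples, so the ages overlapped on this ratio. With the pan-leukocyte term the log2 fold change of Cd86 was 0.82 (standard error 0.71). Among other cell types that carry CD86, 10 macrophage markers summed to 93.6 to 111.2 CPM in the young samples. In the aged samples the sums were 125.6, 20.2 and 206.0 CPM, and only among these was the order that of Cd86. Of the 10 markers, 6 had positive and 4 negative log2 fold changes, with a median of 0.36. That median was -0.59 without the 136-week sample and -1.39 with the pan-leukocyte term. The sum of 8 dendritic cell markers was 105.7 to 137.8 CPM in young and 105.9 to 125.3 CPM in aged samples. Most of it came from Zbtb46, at 68.2 to 112.4 CPM, so the sum says little about the other markers. Of the 8, 6 had positive and 2 negative log2 fold changes, and for 1 of the 6 the filter fixed the direction. Their median was 0.79. It was 0.15 without the 136-week sample, where the gene whose direction the filter fixed gave no value, and 0.050 with the pan-leukocyte term. Of 5 B cell markers, Pax5 was at 0 in all 6 samples, and the sum was 0.947 to 1.23 CPM in young and 1.51, 0.739 and 8.49 CPM in the aged samples. The part of such cells in the Cd86 difference was not tested.

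Cd80, the other ligand of CD28 and CTLA-4 (chromosome 16, 38459013 to 38495821, plus strand), had 1, 2 and 10 counts in the young and 16, 1 and 18 counts in the aged samples. Of these values, 3 were above the floor of 3 counts, and the ages overlapped. The log2 fold change was 1.51 with a standard error of 1.18, and -0.20 with the pan-leukocyte term (standard error 1.43).

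Icosl, whose product engages ICOS on activated T cells, lies on chromosome 10 (77532105 to 77546000, plus strand). It had 12.3, 15.9 and 12.4 CPM in young and 19.98, 22.3 and 15.8 CPM in the 127-, 131- and 136-week samples. The 136-week sample was just below young sample 2, and the other aged samples were above all young samples. With scaling by total counts alone, every aged sample was above every young sample, as for 11.8% of all genes. The mean was 13.5 ± 2.08 CPM in young and 19.4 ± 3.25 CPM in aged ECs (SD, n = 3 each), a ratio of 1.43. The log2 fold change was 0.52 (standard error 0.21), with an adjusted p of 0.374 in edgeR and 0.266 in DESeq2. Unlike Cd274 and Cd86, Icosl was lowest among the aged samples where Ptprc was highest. Its log2 fold change was 0.64 (standard error 0.20) without the 136-week sample and 0.72 (standard error 0.22) with the pan-leukocyte term. Within the libraries with few and with many Lars2 and Rn45s counts the difference was 0.65 and 0.40 on the log2(CPM + 1) scale. Over the 17 alternatives run it stayed between 0.41 and 0.72, without passing the adjusted threshold.

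Cd276 encodes B7-H3, a B7 protein whose receptor is not settled, and lies on chromosome 9 (58372107 to 58402939, minus strand). It had 27, 21 and 31 counts in the young samples and 3, 6 and 44 counts in the 127-, 131- and 136-week samples. The young samples were alike, at 0.948 to 1.005 CPM, while the aged samples lay at 0.103, 0.233 and 1.79 CPM, below the young range in the first 2 and above it in the last. The mean was 0.977 ± 0.0286 CPM in young and 0.708 ± 0.937 CPM in aged ECs (SD, n = 3 each), with a log2 fold change of -0.47 (standard error 0.98) and an adjusted p of 0.901 in edgeR. Without the 136-week sample the log2 fold change was -2.52 (standard error 0.75, adjusted p = 0.463), and without the 127-week sample it was 0.052. Cd276 overlaps the gene Gm10657 on the opposite strand, and the counting strand is not given in the sources used here. Reads from a stretch that both transcripts share could therefore not be told apart. Of the 75-base stretches of Cd276 transcripts, 1.15% occur in transcripts of other protein-coding genes, on either strand. The summed level of 7 stellate and mural cell markers, cells that also express Cd276, was 395.95, 331.1 and 122.7 CPM in young and 446.1, 212.3 and 677.4 CPM in aged samples, highest in the 136-week sample. Most of that last sum was Reln (495.6 CPM), and without Reln the other 6 markers summed to 240.9, 149.9 and 52.8 CPM in young and 94.9, 103.3 and 181.9 CPM in aged samples. The part of such cells in the Cd276 value was not tested.

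**Figure D3:**
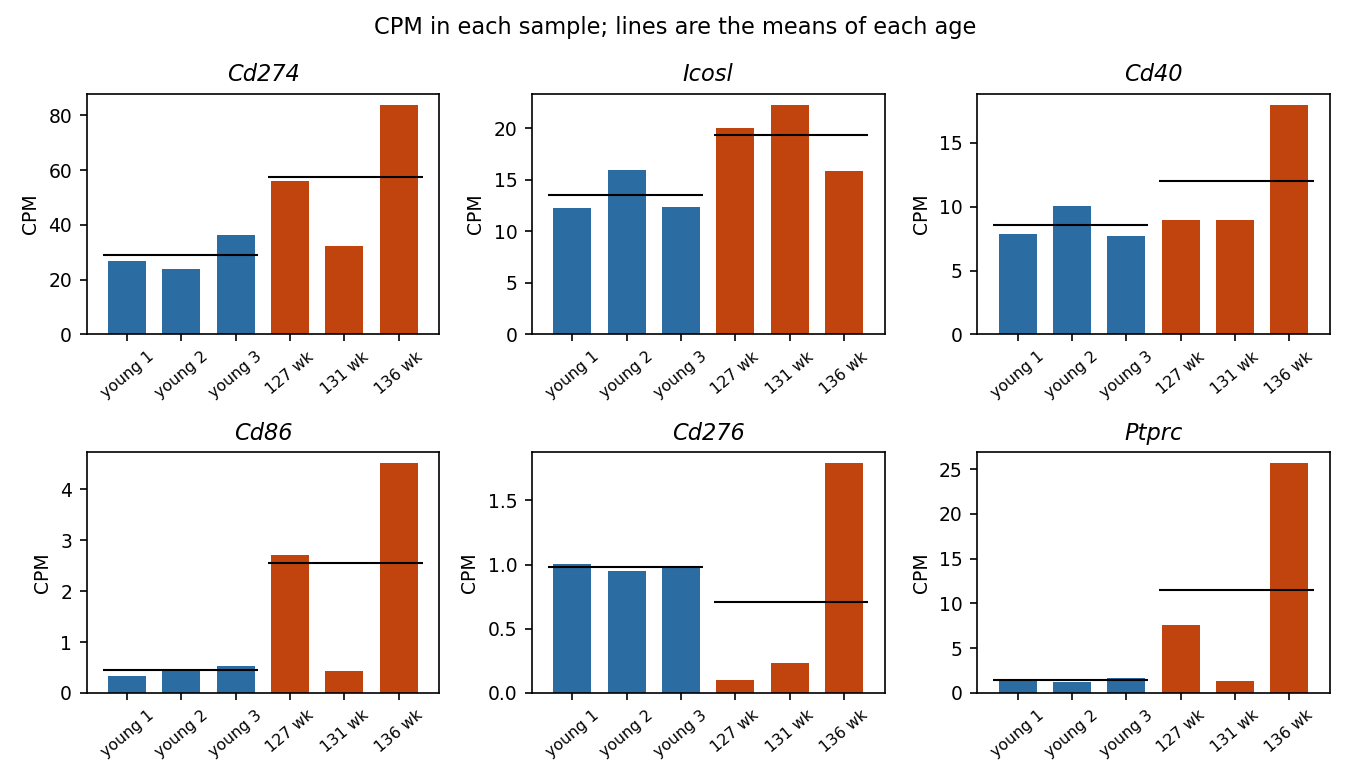
CPM of Cd274, Icosl, Cd40, Cd86 and Cd276, with Ptprc for comparison, in each of the 6 samples. Blue bars are young and orange bars aged samples, and black lines are the means of each age. Cd86 and Ptprc are both highest in the 136-week sample (4.51 and 25.6 CPM) and low in the 131-week sample (0.428 and 1.28 CPM), while Icosl is lowest among the aged samples in the 136-week sample (15.8 CPM).

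Cd40, the receptor through which helper T cells license antigen-presenting cells, lies on chromosome 2 (164881127 to 164898448, plus strand). It had 7.85, 10.02 and 7.70 CPM in young and 8.98, 8.99 and 17.95 CPM in the aged samples. The 127- and 131-week samples lay within the young range, and only the 136-week sample was above it. For Cd40 it was 0.49 on the log2 scale (standard error 0.32), with an adjusted p of 0.590 in edgeR. Without the 136-week sample it was 0.078 (standard error 0.23). Of 12 genes of CD40 signalling (TRAF adaptors, Birc2, Birc3, Map3k14 and NF-kB subunits), 9 were higher and 3 lower, 0 with an unadjusted p below 0.05, and the median was 0.18. The smallest unadjusted p belonged to Traf1, Traf5 and Map3k14 (log2 fold changes of 0.62, 0.56 and 0.37, adjusted p from 0.428 to 0.546 in edgeR). Cd40lg, which encodes the ligand on T cells, was at 0 in the young samples and at most 0.325 CPM in an aged sample.

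Tnfsf10, which encodes TRAIL, lies on chromosome 3 (27215950 to 27241349, plus strand). It was the steadiest of the genes, with 190.3, 185.5 and 175.8 CPM in young and 168.5, 175.9 and 152.7 CPM in aged samples. The ages met only where young sample 3 and the 131-week sample were nearly equal. The mean was 183.9 ± 7.38 CPM in young and 165.7 ± 11.8 CPM in aged ECs (SD, n = 3 each), a ratio of 0.901. The log2 fold change was -0.15 (standard error 0.13), with an adjusted p of 0.704 in edgeR, and it lay between -0.19 and -0.071 over the 17 alternatives. On the FPKM scale the aged samples (30.9 to 35.5) were all below the young samples (36.1 to 38.6), as was the case for 8.78% of all genes on that scale.

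Of 8 genes on the receiving side of TRAIL (receptors, decoys and the caspase-8 branch), 3 were higher and 5 lower, at a median of -0.19 on the log2 scale and with 0 past the adjusted threshold. Tnfrsf10b, the mouse death receptor for TRAIL, had 6.14, 7.27 and 6.75 CPM in young and 13.1, 11.7 and 33.5 CPM in aged samples, so that every aged sample was above every young sample. Its log2 fold change was 1.53 (standard error 0.42), with an adjusted p of 0.256 in edgeR and 0.0182 in DESeq2. It was 0.89 without the 136-week sample and 0.76 with the pan-leukocyte term. Bid, which links caspase-8 to mitochondria, had 11.2, 14.5 and 11.8 CPM in young and 18.4, 17.97 and 17.3 CPM in aged samples. Its log2 fold change was 0.52 (standard error 0.18, adjusted p = 0.332 in edgeR), and 0.54 without the 136-week sample. Casp8 itself had a log2 fold change of -0.21 (adjusted p = 0.554 in edgeR), with every aged sample below every young sample.

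Tnfsf4, which encodes OX40L (chromosome 1, 163325581 to 163348337, plus strand), had 0 counts in 5 samples and 3 counts in the 136-week sample. A count of 0 allows a level of up to 0.0948 to 0.130 CPM in these libraries, so OX40L RNA was not detectable above the floor.

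Lgals9, for galectin-9, lies on chromosome 11 (78776476 to 78798448, minus strand). It had 520.9, 484.1 and 449.0 CPM in young and 400.7, 353.2 and 666.7 CPM in the 127-, 131- and 136-week samples. The first 2 aged samples were below every young sample and the 136-week sample was above every one. The means were 484.7 ± 35.9 and 473.5 ± 168.9 CPM (SD, n = 3 each), with a log2 fold change of -0.034 (standard error 0.25) and an adjusted p of 0.977 in edgeR. Without the 136-week sample it was -0.36 (standard error 0.16, adjusted p = 0.668).

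The other ligands of these kinds, a list of 24 genes, gave 17 that could be tested, of which 12 had positive and 5 negative log2 fold changes, with a median of 0.78 (0.40 without the 136-week sample and -0.034 with the pan-leukocyte term). Tnfsf8 and Ido1 reached 0.5 CPM only in aged samples, so that the filter fixed their direction, and of the other 15 genes 10 were higher and 5 lower. At an unadjusted p below 0.05, 6 of the 17, Tnfsf8 and Ido1 among them, were higher and 0 lower, beside 8.32% and 4.32% of all genes. In edgeR 0 passed the adjusted threshold, and DESeq2 called 2, Cd200 and Tnfsf8, beside 3.39% of the genes to which it gave an adjusted p. Btn2a2 was at 0 in all samples. Cd200, whose product restrains myeloid cells through CD200R and also marks ECs of larger liver vessels, had 144.2, 132.1 and 129.1 CPM in young and 255.5, 213.9 and 355.6 CPM in aged samples. Every aged sample was above every young one. Its log2 fold change was 1.03 (standard error 0.21), with an adjusted p of 0.194 in edgeR and 0.00164 in DESeq2, and it was 0.80 without the 136-week sample and 0.69 with the pan-leukocyte term.

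Tnfsf8, which encodes CD30 ligand, also had no overlap, with at most 0.451 CPM in young samples against 2.03, 1.24 and 4.995 CPM in the aged samples. Its log2 fold change was 4.02 (standard error 1.19, adjusted p = 0.275 in edgeR and 0.0119 in DESeq2), and 3.28 without the 136-week sample. The other genes with an unadjusted p below 0.05 overlapped between the ages. Fgl2, a secreted inhibitor of T cells, had a log2 fold change of 1.45 and Lgals3, another galectin, of 1.62. Ido1, which degrades tryptophan, had 2.59 and Pvr, a ligand of TIGIT and CD226, had 0.59. With the pan-leukocyte term these 4 values were 0.30, -0.034, 0.35 and 0.44. On the lower side, Vsir (VISTA), Cd47 and Fgl1 did not overlap between the ages, with log2 fold changes of -0.33, -0.32 and -1.14 and unadjusted p above 0.05. Without overlap, 2 of the 17 were thus higher and 3 lower, beside 9.62% and 8.33% of all genes. Of these 2, the filter fixed the direction of Tnfsf8 but not that of Cd200.

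The list of 16 receptors for these ligands holds mainly genes of T cells and NK cells, but also Cd200r1, for the CD200 receptor of myeloid cells. Of the 16, 15 could be tested. Of these, 12 were higher and 3 lower, at a log2 median of 1.64 that was 0.11 without the 136-week sample and 0.088 with the pan-leukocyte term. Without the 136-week sample Ctla4 and Tnfrsf4 gave no value, and the other log2 fold changes were spread from -1.01 to 3.11. For 6 of them (Cd28, Ctla4, Tnfrsf4, Tnfrsf9, Havcr2 and Tigit) 0.5 CPM was reached only in aged samples, so their direction was fixed by the filter, and of the other 9 genes 6 were higher and 3 lower. In edgeR 0 passed the adjusted threshold, and DESeq2 called 2, Tnfrsf9 and Havcr2, beside 3.39% of the genes to which it gave an adjusted p. Both are among the 6 genes whose direction the filter fixed. The levels of the 16 receptors were low, at a sum of 14.1 to 19.8 CPM in young and 19.0, 18.7 and 36.1 CPM in aged samples. Within this sum, Cd200r1 had 5.17 to 8.87 CPM and Cd27 3.88 to 5.43 CPM in young samples. In the 127-, 131- and 136-week samples Cd200r1 had 4.61, 9.57 and 3.41 CPM and Cd27 had 3.37, 4.75 and 3.17 CPM. Tnfrsf9, which encodes 4-1BB, had 0.298, 0.180 and 0.158 CPM in young and 1.69, 0.817 and 4.79 CPM in aged samples. It did not overlap between the ages (log2 fold change 3.49, standard error 0.80, adjusted p = 0.235 in edgeR and 0.00275 in DESeq2). Havcr2, for the galectin-9 receptor TIM-3, differed by 3.76 on the log2 scale (standard error 1.15) with an adjusted p of 0.289 in edgeR and 0.0231 in DESeq2, and in the 131-week sample it lay within the young range. Ctla4 had a log2 fold change of 3.54 (adjusted p = 0.419 in edgeR). Pdcd1, the receptor of PD-L1, had 0.126 to 0.632 CPM in young samples and 0.378, 0.0389 and 7.03 CPM in aged samples, so that the 136-week sample alone was above the young range. The 8 T and NK cell markers summed to 7.78 to 9.88 CPM in young and 20.4, 9.80 and 40.3 CPM in aged samples. Only among the aged samples was this the order of Ptprc. Of these sums, Lck alone had 5.69 to 8.90 CPM in young and 13.5, 8.79 and 13.1 CPM in aged samples. The part of T and NK cells in these receptor values was not tested.

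**Figure D4:**
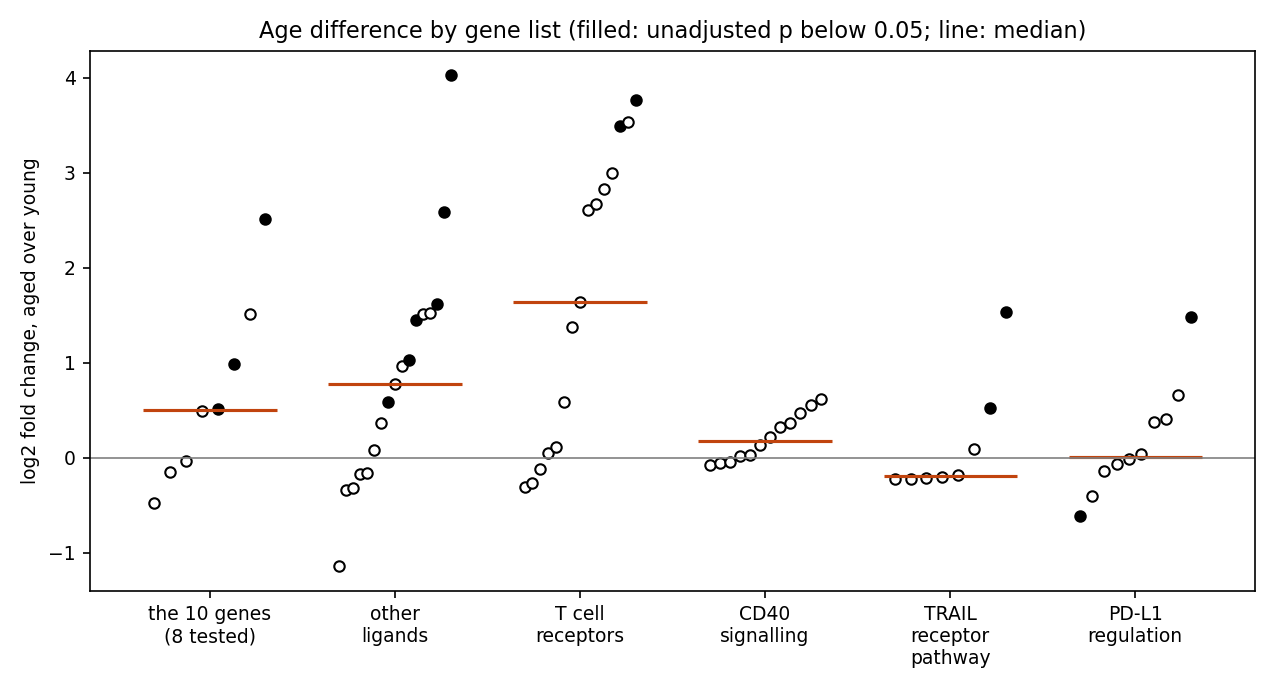
Log2 fold change of aged over young ECs (edgeR, 6 samples) for each tested gene, by list. Points are genes ordered by value, filled where the unadjusted p was below 0.05, and orange lines are medians. The medians are 0.50 for the 8 genes, 0.78 for other ligands, 1.64 for T cell receptors, 0.18 for CD40 signalling, -0.19 for the TRAIL receptor pathway and 0.013 for PD-L1 regulation. The first 3 medians include genes whose direction the filter fixed, 1 of the 8 genes, 2 of 17 other ligands and 6 of 15 T cell receptors.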

How the data were processed

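RNA of CD31+CD45- liver ECs from 3 young and 3 aged samples was measured. Base calling by the authors used CASAVA 1.8.2 and mapping of 75-base reads to mm9 used TopHat2 2.1.0, and the authors deposited whole-number read counts per gene symbol (24421 genes, not normalized). A deposited FPKM table, made by the authors with Cuffnorm 2.2.1, held 24346 genes. Versions are from the submitters' processing notes. The counting program, its annotation and its use of strand are not given in the sources used here. Genes reaching a CPM of 0.5 in any 1 sample were scaled by TMM and tested in edgeR 4.0.16 (R 4.3.3) by quasi-likelihood, Benjamini-Hochberg adjusted over all 14612 genes. CPM values are TMM-scaled. FPKM was used only to compare genes with each other and in alternatives. Standard errors were derived from the F statistic of each gene. The smallest two-sided exact permutation p for 3 samples against 3 is 0.1. The scripts were tested on simulated data. Alternatives used DESeq2 1.42.0, limma 3.58.1, other scalings and filters, FPKM, a term for the library kind or for pan-leukocyte markers, and each sample left out. Gene positions were read from GENCODE for mm9, and promoter sequences are from RefSeq.

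The members and gene lists were chosen with earlier results of these data known. Named genes are the members, the 3 genes of smallest p in each partner list, and partner genes with a log2 fold change beyond 1 at an unadjusted p below 0.05. Pvr, Pdcd1, Cd40lg, Vsir, Cd47, Fgl1, Btn2a2, Pecam1, Kdr, Tek, Eng, Robo4, Reln, Cd28, Tnfrsf4, Tigit and Zbtb46 were named after their values were seen. The same holds for Cd200r1, Cd27, Tnfrsf18 and Lck. Between samples of one age, counts differed by a chi-square of at least 20.2 per degree of freedom, so no library was treated as a repeat of another.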

Additional observations from a re-analysis of the deposited data

How the results depend on the processing

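No member passed the adjusted threshold under any of the 17 alternatives with a fit of their own, and the call count of the 10 genes was 0 in both directions except at an unadjusted p below 0.05 with a log2 fold change beyond 1, which gave 1 (Cd86) higher. Under that rule 793 of all genes were higher and 174 lower. DESeq2 called 395 genes higher and 79 lower, limma-voom 13 and 2, no filter on low counts 3 and 1, the library cluster term 1 and 1, and the pan-leukocyte term 5 and 10. Leaving out 1 sample in turn gave 0 to 1 genes called higher. The number of members higher at an unadjusted p below 0.05 was 3 in all samples, 1 with the pan-leukocyte term and 0 to 2 with a sample left out (0 without young sample 1, 1 without the 136-week sample), settings added after seeing the data. All genes higher at that p were 3.91% with the term and 5.10% to 10.6% with a sample left out. With the term, 2 members were lower at that p, Cd276 (-2.44) and Lgals9 (-0.46). The share of all genes lower at that p was not counted for this fit, so these 2 cannot be set against it. The median log2 fold change of the members was -0.025 with the pan-leukocyte term. Against 0 in CPM, 1 member was without overlap between ages in FPKM (Tnfsf10, lower, beside 8.78% of all genes) and 1 with total counts (Icosl, higher, beside 11.8%). Directions turned for Lgals9 with total counts (0.023), for Cd80 with the pan-leukocyte term (-0.20), and with 1 sample left out for Lgals9 (-0.36 to 0.14, or 0.022 without young sample 1, 0.078 without the 127-week sample and 0.14 without the 131-week sample) and for Cd276 (-2.52 to 0.052, turned without the 127-week sample). The cause was not tested. Cd80, Cd86 and Cd276 gave no value when a CPM of 1 was required in 3 samples. No paired analysis was possible because the ages share no replicate numbers in the labels.

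Counts limit Pdcd1lg2, Cd80, Cd276, Cd86 and Tnfsf4, which had few reads in most samples. Cd274, Cd80, Cd86, Cd40, Cd276 and Lgals9 each peaked in the 136-week sample.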
